A study of Mus musculus with 19 samples.

Results

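The opioid peptides and receptors described here are the 3 precursor genes Penk, Pdyn and Pnoc and the 4 receptor genes Oprm1, Oprd1, Oprk1 and Oprl1, which make up 7 of the 48709 genes in the count files. They were chosen by name as 1 gene family, with the group differences in these counts already known, so their levels and their differences between groups are given as a description of these libraries. All 7 were among the 19286 genes that were tested, which are those with 5 reads or more in 50% or more of the libraries. Pomc, the fourth precursor of the family, is not a member and is described beside them.

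The tissue was the CA1 region of the hippocampus, microdissected from 19 male wild-type C57B/6J mice. Young mice (3 months, n = 6) and old control mice (16.5 months, n = 6) had received scrambled control oligonucleotides in lipid nanoparticles, and old anti-miR-mix mice (16.5 months, n = 7) had received inhibitors of miR-181a-5p, of miR-146a-5p and of miR-148a-3p in the same carrier. All groups were injected in the dorsal hippocampus, and the study trained mice with these injections in the water maze. Each library is counted here as 1 animal. No group without an injection was analysed here, so age was compared between injected animals only. The libraries held between 26653511 and 38908947 counted reads, and levels are given as CPM, mostly on the log2 scale. CPM is the count of a gene scaled to the library total over the tested genes, times a TMM scaling factor (0.968 to 1.03).

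Opioid peptides are cut from larger precursor proteins inside secretory vesicles and released from neurons. Penk encodes the enkephalins, which act mainly at the delta (Oprd1) and mu (Oprm1) receptors, Pdyn encodes the dynorphins, which prefer the kappa receptor (Oprk1), and Pnoc encodes nociceptin, the ligand of the nociceptin receptor (Oprl1). All 4 receptors couple to inhibitory G proteins, lower cyclic AMP, open inwardly rectifying potassium channels and close presynaptic calcium channels, so that they dampen excitability and transmitter release. In the hippocampus dynorphin is best known from the granule cells of the dentate gyrus and their mossy fibres, and mu and delta receptors from inhibitory interneurons.

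The precursors hold short peptide cores in their coding sequence. The 12 bases that encode the core Tyr-Gly-Gly-Phe are in capitals below for each copy in Pdyn and for the first of 7 copies in Penk, and those of the nociceptin core Phe-Gly-Gly-Phe for Pnoc. They are shown because Penk and Pdyn share the first core, while Pnoc holds the nociceptin core. The sequences were read from GENCODE M21 transcripts (GRCm38), all on the minus strand.
Penk copy 1, chr4:4134328-4134354: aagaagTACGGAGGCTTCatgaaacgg
Pdyn copy 1, chr2:129688232-129688258: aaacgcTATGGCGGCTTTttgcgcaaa
Pdyn copy 2, chr2:129688124-129688150: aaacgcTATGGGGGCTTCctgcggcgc
Pdyn copy 3, chr2:129688067-129688093: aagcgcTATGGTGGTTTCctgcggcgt
Pnoc copy 1, chr14:65404872-65404898: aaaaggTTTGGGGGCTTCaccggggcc
The codon after the core encoded methionine in 6 and leucine in 1 of the 7 Penk copies, and leucine in all 3 Pdyn copies. Tyr-Gly-Gly-Phe was encoded in frame in 52 of the 15355 tested genes with a complete coding sequence (0.339%), and in more than 1 copy in 2 of them, Penk and Pdyn. Pomc held 1 copy, and Pnoc held none. Phe-Gly-Gly-Phe was encoded in frame in 83 of the same 15355 genes (0.541%).

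Levels of different genes were compared as CPM per kilobase of exon. Penk averaged 14.6 ± 2.91 (SD, n = 19 libraries) and Oprl1 13.6 ± 1.38 on this scale, and Penk was the higher of the pair in 12 of 19 libraries, so their order was not settled. Oprd1 followed at 4.59 ± 0.508 and Pnoc at 4.30 ± 0.269, a pair whose order also changed between libraries (Oprd1 was higher in 13 of 19). Pdyn averaged 1.38 ± 0.379. Oprk1 (0.234 ± 0.0761) and Oprm1 (0.204 ± 0.0446) were lowest, with Oprk1 the higher in 13 of 19 libraries, and their order turned around when the longest transcript was used as the length. The steps from Oprl1 to Oprd1, from Pnoc to Pdyn and from Pdyn to Oprk1 had the same direction in 19 of 19 libraries. The nociceptin receptor thus made up most of the receptor RNA per length in every group, with 73.0% ± 1.17 (SD, n = 6) in young, 73.0% ± 1.71 (n = 6) in old control and 72.9% ± 3.52 (n = 7) in old anti-miR-mix libraries. Penk made up most of the RNA of the 3 precursors, with 67.5% ± 5.51, 74.5% ± 2.63 and 72.1% ± 4.49.

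**Figure D1:**
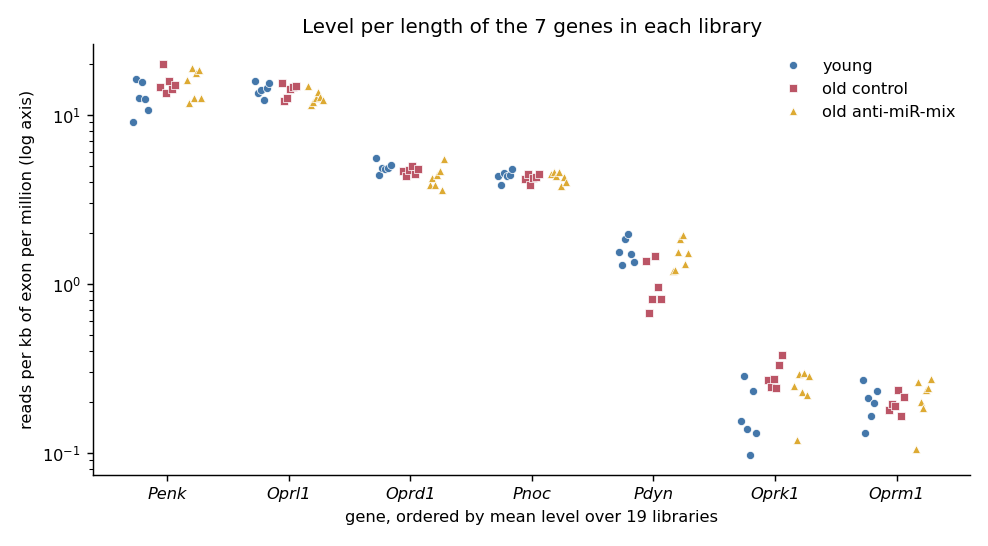
CPM per kilobase of exon (log axis) of the 7 genes in each of the 19 libraries, ordered by their mean and with 1 point per library (circles young, squares old control, triangles old anti-miR-mix). Penk and Oprl1 overlap at the top, Oprd1 and Pnoc overlap in the middle, and Oprk1 and Oprm1 overlap at the bottom, with Pdyn between 0.675 and 1.97.

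Depth set how well each gene was measured. Penk, Oprl1, Oprd1 and Pnoc had at least 220 reads in every library, Pdyn had 55 to 219, and Oprk1 and Oprm1 had 30 to 104 and 25 to 63. In whole tissue, fewer cells that carry a transcript and less of it per cell cannot be told apart. The libraries were made without strand information, as far as the kit goes, and exons of Oprm1 overlapped those of Ipcef1 on the opposite strand, so that reads in the shared stretch cannot be assigned to either gene. Ipcef1 had a CPM of 30.1 or more in every library.

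Among the 3 precursors that are members, Pdyn had the largest fitted difference in old control against young and in old anti-miR-mix against old control. Its log2 CPM was 1.93, 2.16 and 2.53 in young libraries (lowest, median and highest), 1.01, 1.39 and 2.10 in old control libraries and 1.80, 2.16 and 2.51 in old anti-miR-mix libraries. The old control libraries were thus the low group: 4 of the 6 lay under every young library and under every old anti-miR-mix library, the other two lay among them, and young and old anti-miR-mix libraries overlapped. Pdyn was 0.63 ± 0.18 (SE) lower on the log2 scale in old control than in young libraries (fold change 0.645, edgeR quasi-likelihood test, adjusted p = 0.0556). Old anti-miR-mix libraries exceeded old control libraries by 0.56 ± 0.17 (fold change 1.47, adjusted p = 0.167) and lay 0.07 ± 0.16 under young libraries (adjusted p = 0.865). The first 2 comparisons share the old control libraries, so that low values there move both. Neither passed the threshold of 0.05.

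Oprk1, the receptor of the dynorphins, showed its low values in the young group. Log2 CPM was -0.08, 0.48 and 1.41 in young libraries (lowest, median and highest), 1.18, 1.34 and 1.81 in old control and 0.20, 1.22 and 1.48 in old anti-miR-mix libraries. A total of 5 of 6 young libraries lay under every old control library, while young 2 lay among them at 1.41, and 6 of 7 old anti-miR-mix libraries lay above the young median. The fitted difference was 0.76 ± 0.23 between old control and young (fold change 1.70, adjusted p = 0.0717), -0.25 ± 0.21 between old anti-miR-mix and old control (adjusted p = 0.728) and 0.51 ± 0.22 between old anti-miR-mix and young (adjusted p = 0.198). These levels rested on 34 to 69 reads in young, 63 to 104 in old control and 30 to 104 in old anti-miR-mix libraries.

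Penk, the enkephalin precursor, stood above the young level in both old groups, by 0.28 ± 0.14 in old control (fold change 1.22, adjusted p = 0.303) and by 0.27 ± 0.14 in old anti-miR-mix libraries (adjusted p = 0.279). The lowest, median and highest log2 CPM were 3.895, 4.35 and 4.74 in young, 4.46, 4.60 and 5.04 in old control and 4.26, 4.71 and 4.95 in old anti-miR-mix libraries. All 6 old control libraries lay above the young median, and 4 of 6 young libraries lay under every old control library. The difference between the old groups was -0.01 ± 0.14 (adjusted p = 0.991). Pnoc, the nociceptin precursor, was the steadiest member. It lay between 3.05 and 3.37 in all 19 libraries, and its fitted differences were -0.05 ± 0.06, 0.02 ± 0.06 and -0.03 ± 0.06 for old control against young, old anti-miR-mix against old control and old anti-miR-mix against young.

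The delta receptor Oprd1 was lowest in old anti-miR-mix libraries. Its lowest, median and highest log2 CPM were 4.15, 4.28 and 4.47 in young, 4.13, 4.24 and 4.32 in old control and 3.86, 4.09 and 4.47 in old anti-miR-mix libraries. A total of 5 of 7 old anti-miR-mix libraries lay under every young library, whereas old anti-miR-mix 7 lay beside the highest young one. The difference to young was -0.19 ± 0.08 (adjusted p = 0.155), that to old control -0.12 ± 0.08 (adjusted p = 0.628), and old control and young differed by -0.07 ± 0.08 (adjusted p = 0.681). The nociceptin receptor Oprl1 ranged from 5.52 to 5.90 in young, from 5.50 to 5.85 in old control and from 5.42 to 5.80 in old anti-miR-mix libraries. Of the 7 old anti-miR-mix libraries 6 lay under the median of each other group, with differences of -0.16 ± 0.07 to young (adjusted p = 0.198) and -0.13 ± 0.07 to old control (adjusted p = 0.545), and old control differed from young by -0.03 ± 0.07. The mu receptor Oprm1 ranged from 0.16 to 1.15 in young, from 0.47 to 0.96 in old control and from -0.14 to 1.17 in old anti-miR-mix libraries. Its groups overlapped throughout, and its fitted differences were -0.04 ± 0.19, 0.13 ± 0.18 and 0.09 ± 0.18 in the order used for Pnoc.

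**Figure D2:**
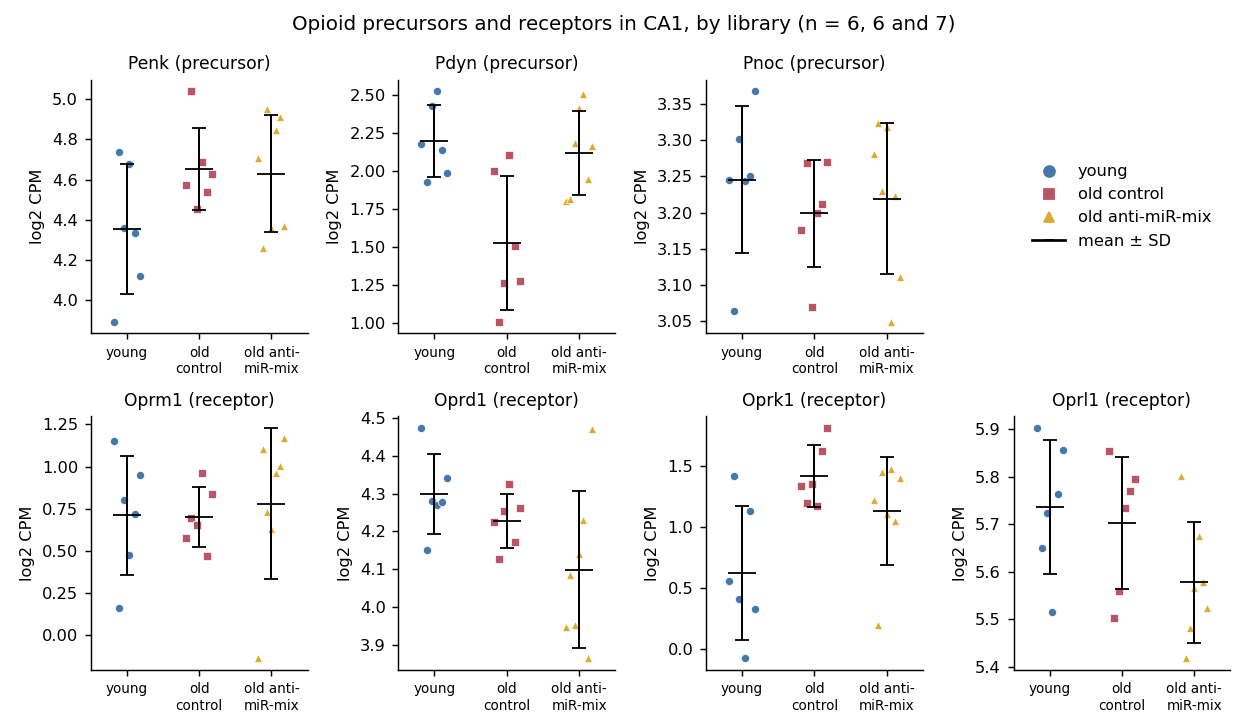
Log2 CPM of the 3 precursors (upper row) and 4 receptors (lower row) in each library, 1 point per library, with the group mean and SD as bars and a scale of its own for each gene. Old control libraries reach down to 1.01 for Pdyn, 5 of 6 young libraries lie under every old control library for Oprk1, and the groups overlap for all 7 genes.

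Set beside all genes, the family held no call with edgeR. Of the 7 members 0 passed an adjusted p of 0.05 with edgeR in old control against young, where 2.67% of all tested genes did, and 2 of 7, Oprk1 and Pdyn, had an unadjusted p under 0.05, where 18.1% of all genes did. The same 2 members passed with DESeq2 (adjusted p = 0.0253 for Oprk1 and 0.0129 for Pdyn), which called 4.74% of all genes. With the treatment, old anti-miR-mix against old control, 0 of 7 passed with edgeR, beside 0.669% of all genes, and 0 of 7 with DESeq2, beside 1.38%. Pdyn alone had an unadjusted p under 0.05 (0.00354), as did 10.5% of all genes. In old anti-miR-mix against young 0 of 7 passed with edgeR or DESeq2, beside 6.2% and 7.88% of all genes, and 3 of 7 had an unadjusted p under 0.05 (Oprd1 and Oprl1 lower, Oprk1 higher), beside 19.6%. Groups without overlap were seen for 0 of 7 members in each comparison, beside 2.54%, 0.498% and 2.42% of all genes. In absolute size the log2 fold changes of the 7 members had medians of 0.07, 0.13 and 0.16 in the 3 comparisons, and those of all genes 0.09, 0.07 and 0.08.

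**Figure D3:**
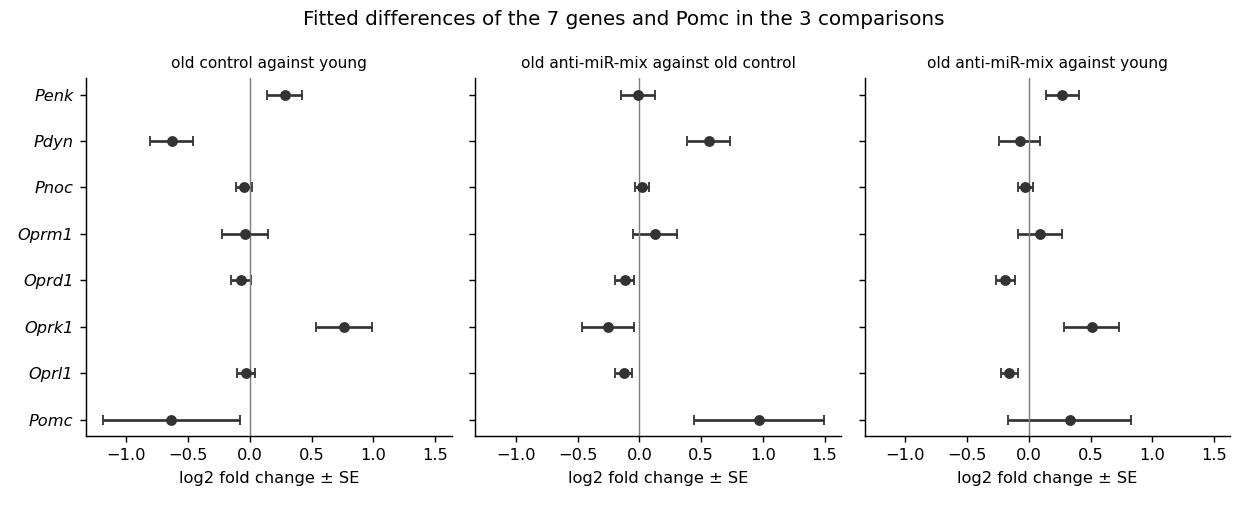
Fitted log2 fold changes (points) with their standard errors (bars) for the 7 members and Pomc in the 3 comparisons. Oprk1 (0.76) and Pdyn (-0.63) stand furthest from 0 among the members in old control against young, Pdyn (0.56) in old anti-miR-mix against old control, and the bars of Pomc are the widest.

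Whether Pdyn and Oprk1 passed the threshold changed with single libraries and with the way the libraries were grouped. A number from 1 to 4 per library can be read from the deposited normalised table, and libraries with the same number are called a processing group. The old control group held no library of group 3, the group of the 2 young and 3 old anti-miR-mix libraries in which Pdyn averaged 2.48 and 2.37. Within groups 1, 2 and 4 Pdyn differed by -0.67, -0.24 and -0.67 between old control and young, and by 0.30, 0.31 and 0.56 between old anti-miR-mix and old control, with 1 or 2 libraries per side. With processing group as a factor the fitted differences were -0.49 (adjusted p = 0.131) and 0.35 (adjusted p = 0.743). Oprk1 differed by 0.72, -0.15 and 0.99 between old control and young within those groups, and by 0.76 in the fit with the factor (adjusted p = 0.119). Without young 2, the 1 library of its group in processing group 2, the adjusted p was 0.0183 for Oprk1 and 0.0429 for Pdyn. Pdyn also passed without old control 1 (0.0391) or old control 4 (0.0250), and Oprk1 without old anti-miR-mix 2 (0.0435). Old control 5 and 6 resembled each other more than any other pair of libraries of 1 group (chi-square per degree of freedom 2.18 over 12780 genes, against 6.10 to 35.9 in the other pairs), although they differed by more than sampling noise. With both counted as 1 library the adjusted p was 0.103 for Pdyn and 0.132 for Oprk1.

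Ligands and receptors were also set against each other within each library, as ratios that do not depend on the total depth. The log2 ratio of the summed precursors to the summed receptors, per length, was -0.07 ± 0.34 (SD, n = 6) in young, 0.12 ± 0.23 (n = 6) in old control and 0.27 ± 0.22 (n = 7) in old anti-miR-mix libraries. It ran from -0.55 to 0.35, from -0.03 to 0.58 and from -0.01 to 0.61, so that the groups overlapped. It was above 0 in 2 of 6, 4 of 6 and 6 of 7 libraries. Summed receptors averaged 19.5 ± 1.69, 19.04 ± 1.44 and 17.5 ± 1.23 CPM per kilobase, and summed precursors 18.7 ± 2.69, 20.8 ± 2.45 and 21.2 ± 2.98. The spread between libraries of a group was as large as the distance between the group means for the precursors.

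The ratio of the dynorphin precursor to its receptor covered a wider range than that of the sums. Pdyn had 3.23 times as many reads as Oprk1 in the median young library (range 1.43 to 6.44), 0.928 times in old control (0.683 to 1.93) and 1.89 times in old anti-miR-mix libraries (1.51 to 3.20). On the log2 scale of CPM the ratio averaged 1.62 ± 0.76 (SD, n = 6), 0.11 ± 0.58 (n = 6) and 1.01 ± 0.38 (n = 7). It was above 0 in 6 of 6 young, 2 of 6 old control and 7 of 7 old anti-miR-mix libraries. This ratio is not scaled to gene length, so that 0 marks equal reads and not equal levels. Per kilobase of exon Pdyn was above Oprk1 in 19 of 19 libraries. Since both genes were known to differ when the pair was formed, no test was made of their ratio.

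**Figure D4:**
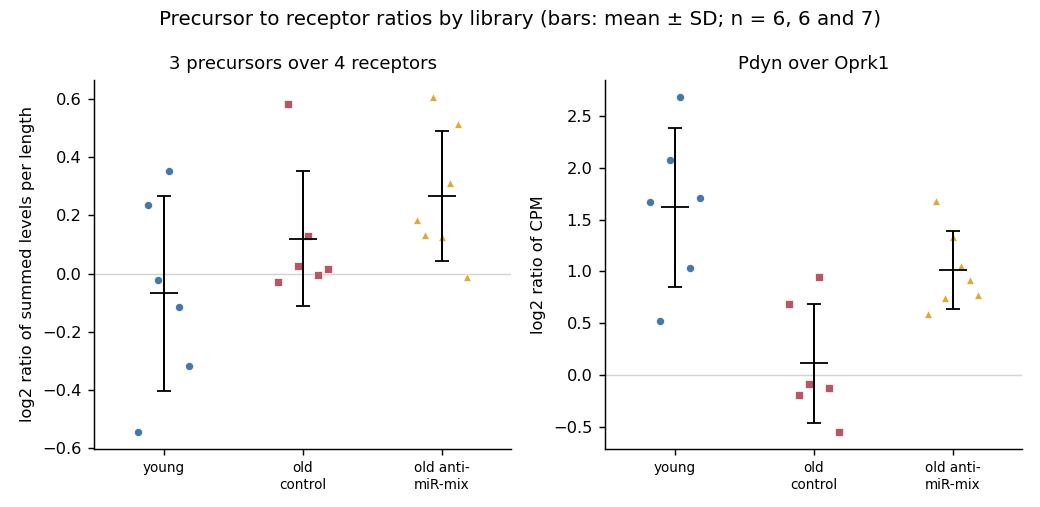
Log2 ratios by library, with the group mean and SD as bars, of the 3 precursors to the 4 receptors as summed levels per length (left) and of Pdyn to Oprk1 in CPM (right). On the right, 4 of 6 old control libraries lie under 0 and all young and old anti-miR-mix libraries lie above it. The lowest young library is young 2 at 0.52. The right panel is not scaled to gene length, so that 0 there marks equal reads and not equal levels.

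Pomc, the precursor of beta-endorphin, had few reads in CA1, with 12 to 58 reads in young and old control libraries. Its log2 CPM ran from -0.34 to 0.65 in young and from -1.03 to -0.01 in old control libraries. In old anti-miR-mix libraries the median was -0.52, whereas old anti-miR-mix 2 held 159 reads and a log2 CPM of 2.54. The fitted differences of -0.64 ± 0.56, 0.97 ± 0.53 and 0.33 ± 0.50 did not pass the threshold (adjusted p = 0.595, 0.548 and 0.781), and those against old control and against young depended on that library.

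The 3 inhibited microRNAs are shown with their seed (bases 2 to 8) in capitals, since the treatment was directed at these microRNAs themselves. The mature sequences are those of RefSeq (GRCm38.p6), and miR-181a-5p has the same sequence at its 2 loci. No seed is shared between them.
miR-181a-5p, chr1:137966468-137966490 (plus strand) and chr2:38852741-38852763 (plus strand): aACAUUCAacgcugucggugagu
miR-146a-5p, chr11:43374435-43374456 (minus strand): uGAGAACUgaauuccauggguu
miR-148a-3p, chr6:51269829-51269850 (minus strand): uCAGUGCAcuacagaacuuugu
The 7 bases complementary to each seed were looked for in the longest annotated 3′UTR of each gene (GENCODE M21, GRCm38), on the transcript strand only. Matches were found for miR-146a-5p in 2 of the 7 members, Oprd1 and Oprl1, and in 12.3% of 15322 tested genes with a 3′UTR. For miR-148a-3p 1 member, Pdyn, held a match, as did 14.8% of genes. For miR-181a-5p 0 members and 18% of genes held one. The shares are not adjusted for length, and a longer 3′UTR has more places for a match. The 3′UTRs of Oprd1, Oprl1 and Pdyn had 2801, 1648 and 1436 bases, against a median of 1153 over all these genes. Those of the members without a match had 3347 (Oprk1), 1234 (Pnoc), 1037 (Oprm1) and 308 (Penk) bases. The sites are given with 11 bases on either side and the match in capitals.
Oprd1, miR-146a-5p, chr4:132112981-132113009 (minus strand): agaagagtcaaAGTTCTCaccacctttct
Oprl1, miR-146a-5p, chr2:181720932-181720960 (plus strand): ggtaatgaaggAGTTCTCataataaacac
Pdyn, miR-148a-3p, chr2:129687036-129687064 (minus strand): ggcccagcgtaTGCACTGgcactgggaag
Between old anti-miR-mix and old control the fitted differences of these 3 genes were -0.12 for Oprd1, -0.13 for Oprl1 and 0.56 for Pdyn, none of which passed the threshold. The 4 members without a match differed by -0.25 (Oprk1), 0.13 (Oprm1), -0.01 (Penk) and 0.02 (Pnoc). A match of these letters is a description of the sequence only.

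Beyond the 7 members, 39 other genes of the pathway were followed, from precursor processing to the G proteins and channels on which the receptors act. Pomc is 1 of these 39 and stands in none of the lists named below. In old control against young 1 of 39 passed the threshold, a share near the 2.67% of all tested genes. This was Pcsk1, a convertase that cuts peptide precursors, which was lower by 0.51 ± 0.12 (adjusted p = 0.0224) and fell from a log2 CPM of 4.99 ± 0.28 (SD, n = 6) to 4.51 ± 0.14 (n = 6). Pcsk1 no longer passed with processing group as a factor, with inhibitory neuron markers as a covariate (where Dpp3, a peptidase named here after its values were seen, passed in its place), without young 4 or without old control 2. In this comparison 11 of 39 had an unadjusted p under 0.05, 4 higher and 7 lower, beside 18.1% of all genes, and the median log2 fold change was -0.04 against 0.01 over all genes. The other lists held 0 calls: peptide degradation and scavenging (6 genes, median -0.14), inhibitory G proteins (5, 0.03), effector channels and cyclases (8, 0.03), desensitization and G protein regulators (10, -0.04) and transcriptional regulators of precursors (3, -0.15), beside 1 of 6 for precursor processing (median -0.03).

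In old anti-miR-mix against old control 0 of 39 passed with edgeR, beside 0.669% of all genes, and 4 had an unadjusted p under 0.05, a share near the 10.5% of all genes, with 0 calls by DESeq2. The lowest p-values belonged to inhibitory G protein subunits, Gnai1 at -0.11 ± 0.04 (adjusted p = 0.298) and Gnai3 at 0.12 ± 0.04 (adjusted p = 0.308), which differed in opposite directions. Against young, 2 of 39 passed in old anti-miR-mix libraries, which is no larger a share than the 6.2% of all genes. Gnai2, a further inhibitory subunit, rose by 0.15 ± 0.04 (adjusted p = 0.0301), and Creb1, a transcription factor that acts on cyclic AMP responsive promoters, among them those of opioid precursors, fell by 0.16 ± 0.04 (adjusted p = 0.0341). Here 13 of 39 had an unadjusted p under 0.05, 1 higher and 12 lower, beside 19.6% of all genes, with a median of -0.05 over the 39 genes. Leaving out 1 library at a time moved the count of 2 to between 0 (without young 6 or old anti-miR-mix 7) and 5 (without young 2). Of all genes 899, 1082 and 1185 were called without young 6, old anti-miR-mix 7 and young 2.

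Marker lists of 13 cell types or states (80 genes) were read beside the members, since CA1 dissection can carry neighbouring tissue. No marker was at 0 in every library. The 5 CA1 pyramidal markers summed to a log2 CPM of 8.61 to 9.25, and markers of the dentate gyrus, striatum, thalamus and deep cortex were all detected. Over all tested genes 2.67%, 0.669% and 6.2% were called in old control against young, old anti-miR-mix against old control and old anti-miR-mix against young. Of the lists, microglia held most calls, with 1, 2 and 5 of 6 markers higher in these comparisons. Astrocyte markers held 2 of 6 higher in the last comparison. Thalamus markers held 1 of 5 higher in the first and 2 of 5 in the last, while the median log2 fold change of the list was -0.22 and -0.09 there and its summed level averaged 6.78 in young, 6.56 in old control and 6.68 in old anti-miR-mix libraries. Oligodendrocyte precursor markers held 1 of 5 lower in the same comparisons, and CA1 pyramidal markers 1 of 5 lower in the last. The lists of CA2 pyramidal, CA3 pyramidal, dentate granule, inhibitory neuron, striatum, deep cortical layer, leptomeningeal fibroblast and immediate early genes held 0 calls in every comparison.

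Within the groups, each member was then related to the 13 lists and to the other members, as 112 correlations of log2 CPM over 19 libraries with the group means removed and permutations within groups. These relations do not use the differences between groups. Of the 112, 6 had a Benjamini-Hochberg adjusted permutation p under 0.05 by Pearson's r, 5 of them of Penk, and 4 by Spearman's rho, 3 of them of Penk. The relations of the lists to each other were not tested, so those of Penk may not be separate. In old anti-miR-mix 3 the CA2 pyramidal sum was the highest of its group (6.81). The striatum (5.95) and deep cortical layer (6.50) sums were the lowest of the group in the same library. Penk rose with the sum of the 4 CA2 pyramidal markers (Pearson's r = 0.841, adjusted permutation p = 0.017, Spearman's rho = 0.863, adjusted permutation p = 0.008). By group r was 0.783 in young, 0.858 in old control and 0.926 in old anti-miR-mix libraries. Without the 2 libraries farthest from the median r was 0.820, and with the means of the processing groups removed as well it was 0.898. Rgs14 made up most of this sum, with a CPM of 44.2 to 83.4 over the libraries. Amigo2 had 8.08 to 17.05, Cacng5 7.69 to 12.9 and Map3k15 1.26 to 3.63. Rgs14 also stands in the list of desensitization and G protein regulators above. The relations of Penk and Oprd1 to the single CA2 pyramidal markers were not tested. Penk also rose with CA1 pyramidal markers (r = 0.745, rho = 0.711, adjusted permutation p = 0.032 and 0.070). It fell with markers of the striatum (r = -0.767, rho = -0.761, adjusted permutation p = 0.022 and 0.044), the deep cortical layer (r = -0.760, rho = -0.749, adjusted permutation p = 0.024 and 0.044) and the thalamus (r = -0.697, rho = -0.651, adjusted permutation p = 0.032 and 0.101). Without the 2 farthest libraries these 4 values of r were 0.676, -0.696, -0.701 and -0.646. Oprd1 showed the opposite relation to CA2 pyramidal markers (r = -0.749, rho = -0.705, adjusted permutation p = 0.032 and 0.101), with r = -0.680 without the 2 farthest libraries. With deep cortical layer markers Oprd1 rose by rho only (rho = 0.746, r = 0.661, adjusted permutation p = 0.044 and 0.089), with r = 0.619 without the 2 farthest libraries.

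The summed CA2 pyramidal markers ranged from 6.18 to 6.74 in young, from 6.24 to 6.71 in old control and from 6.06 to 6.81 in old anti-miR-mix libraries (means 6.39, 6.41 and 6.45), and Penk averaged 4.35, 4.65 and 4.63. The part of these markers in the level of Penk was not tested. Deep cortical layer markers averaged 7.13 ± 0.25 in young, 6.92 ± 0.13 in old control and 6.92 ± 0.23 in old anti-miR-mix libraries, and their part was not tested either.

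Pdyn went with the sum of the 7 dentate granule markers within groups, at r = 0.646 (permutation p = 0.004, adjusted permutation p = 0.061) and rho = 0.560 (permutation p = 0.019, adjusted permutation p = 0.140). Neither passed after adjustment. The relation was 0.872 in young, 0.644 in old control and 0.588 in old anti-miR-mix libraries, 0.549 without the 2 farthest libraries, and 0.412 with processing groups removed. The summed dentate granule markers ranged from 5.83 to 6.99 in young, from 5.78 to 6.64 in old control and from 5.94 to 6.97 in old anti-miR-mix libraries, with means of 6.30, 6.20 and 6.32. With this sum as a covariate the difference of Pdyn between old control and young was -0.59 (adjusted p = 0.0313), and with processing group as a factor as well it was -0.54 (adjusted p = 0.0936). With inhibitory neuron markers as the covariate it was -0.54 (adjusted p = 0.166). No relation was detected between Oprk1 and Pdyn (r = -0.082, rho = -0.086, permutation p = 0.712 and 0.719), and among the lists the thalamus stood nearest to Oprk1 (r = -0.619, rho = -0.600, adjusted permutation p = 0.107 and 0.101).

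**Figure D5:**
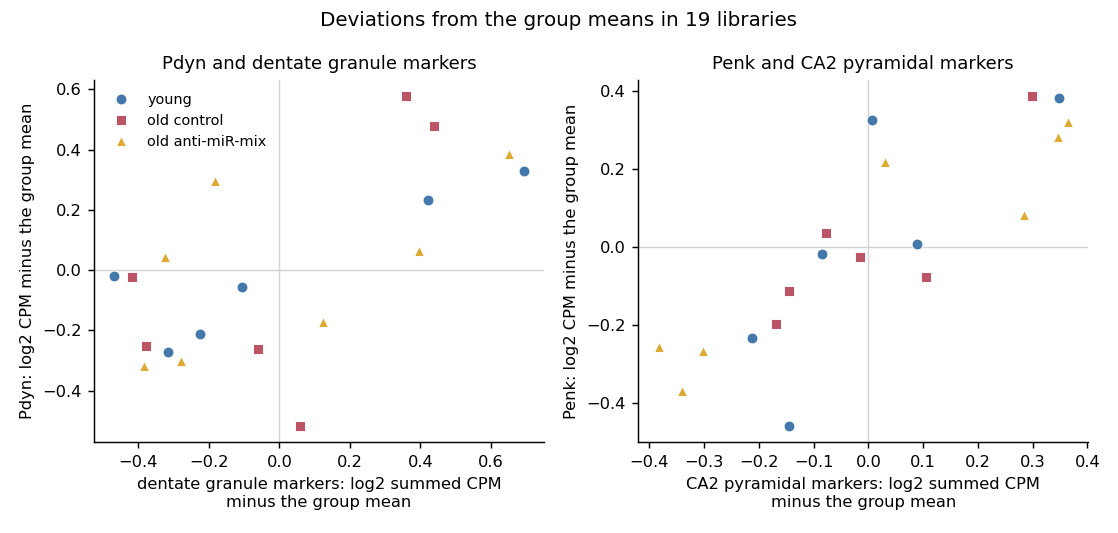
Deviation of each library from its group mean for Pdyn against the summed dentate granule markers (left) and for Penk against the summed CA2 pyramidal markers (right), on the log2 CPM scale, with 1 point per library. The points follow a line more closely for Penk (r = 0.841) than for Pdyn (r = 0.646), and all 3 groups run in the same direction in both panels.

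For each member the 2 tested genes with the most similar pattern were taken from 15959 genes with a mean of at least 20 reads, by Pearson's r over 19 libraries with the group means removed. Pdyn was most like C1ql2 (r = 0.789), which is 1 of the dentate granule markers, and Ahcyl2 (0.760). Penk was most like Zfp189 (0.936) and Ippk (0.920), and Oprl1 like Ap3s2 (0.915) and Zcchc18 (0.914). Oprm1 was most like Unc80 (0.887) and Faxc (0.882), and Oprd1 like Plekha6 and Dkk2 (0.842 for both). Oprk1 was most like Gm28271 (0.863) and Lnx2 (0.816), and Pnoc like Haus4 (0.846) and Sap30l (0.817). Each pair was taken as the highest of many values over libraries that share a dissection, so these are descriptions only.

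On GRCm38 (GENCODE M21) the precursors lie at chr4:4133531-4138819 (Penk), chr2:129686565-129699844 (Pdyn) and chr14:65400673-65425472 (Pnoc), all on the minus strand. The receptors lie at chr10:6758506-7038198 (Oprm1, plus strand), chr4:132110726-132144486 (Oprd1, minus strand), chr1:5588466-5606131 (Oprk1, plus strand) and chr2:181715016-181720985 (Oprl1, plus strand). All 7 are protein-coding genes.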

How the data were processed

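Polyadenylated RNA of 19 microdissected CA1 samples was sequenced by the authors as single 50-base reads (TruSeq RNA v2, HiSeq2000), mapped to mm10 with STAR 2.5.2b and counted per gene with featureCounts (Subread 1.5.1). Strand and multi-mapping options were not given in the sources used here. The deposited files held raw counts per gene for each library and 1 table of log2 values made by the authors, which equalled log2(CPM + 1) of 18761 genes minus, for each gene, a slope times a number from 1 to 4 per library (largest residual 3.4e-08). The source of these numbers is not described, and libraries that share one are called a processing group. CPM in the authors' log2 values was scaled to read totals without a TMM factor.

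Groups and replicate numbers were taken from the submitters' descriptions. Of 48709 counted genes 48349 had a symbol in GENCODE M21 (GRCm38). The filter kept genes for which 50% of libraries or more held 5 reads or more. edgeR 4.0.16 (R 4.3.3) fitted the 3 groups together, without covariates and after TMM scaling, its quasi-likelihood test was used, and Benjamini-Hochberg adjustment ran over all 19286 genes. The study used DESeq2, and DESeq2 1.42.0 and limma 3.58.1 (on the deposited log2 values) were run as alternatives. Log2 CPM had a prior count of 2. The fits were tested on simulated data. Correlations had 100000 permutations within groups. P-values measure the spread between these libraries, each counted as 1 animal.

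The members, the pathway and marker lists and the named genes were chosen with earlier results of these data known. Named were the 7 members and Pomc. Of the other pathway genes, up to 4 higher and 4 lower past the threshold were named per comparison, or the 2 with the lowest p where none passed. For each member the 2 most similar genes were named, and of each marker list any gene at 0 in every library. Reads per kilobase used the union of exons.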

Additional observations from a re-analysis of the deposited data

Results flagged for a closer look

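Each group was checked, for the 7 members and Pomc, for a library far from the rest: the gap between the highest or lowest library and its neighbour was divided by the range of the group and compared with Dixon's critical value (0.625 for 6 and 0.568 for 7 libraries). Of 24 groups of values 3 were past it, and about 1 in 20 would be by chance. Oprk1 in old anti-miR-mix 2 was low, with a log2 CPM of 0.195 (30 reads) and a gap of 0.666 of the range. Oprm1 in old anti-miR-mix 1 was low, at -0.135 (25 reads, gap 0.586). Pomc in old anti-miR-mix 2 was high, at 2.54 (159 reads, gap 0.729), and without that library Pomc differed by -0.10 between old anti-miR-mix and old control and by -0.74 between old anti-miR-mix and young. These 3 genes are the ones with the fewest reads, and the part of depth or of the library in these values was not tested.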

How the results depend on the processing

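Of 294 fold changes of the 7 members recomputed under other settings and 399 with 1 library left out, 282 and 380 kept their direction and their side of the threshold. In old control against young 0 of 7 members passed, but 2 did with DESeq2 (Oprk1 and Pdyn) and with limma on the deposited log2 values (0.0495 and 0.0486), and 1, Pdyn, with the replicate block, with dentate granule markers as a covariate and, in a fit added after seeing the data, with CA3 pyramidal markers as a covariate (adjusted p = 0.0215, 0.0313 and 0.0484). Of all 19286 tested genes 514 passed in the main fit, 914 with DESeq2 and 651 with the replicate block. With dentate granule markers 464 passed, with CA3 pyramidal markers 543, and with limma 651 of 18761 genes. Leaving out 1 library gave 0 to 2 members, beside 212 to 691 of all genes. Over all alternatives other than these omissions the adjusted p of Pdyn ran from 0.0129 to 0.223 and that of Oprk1 from 0.0253 to 0.201. For the treatment the count of members was 0 in every setting run, and the adjusted p of Pdyn ran from 0.0609 to 0.856. For old anti-miR-mix against young Oprd1 alone passed with the replicate block (-0.26, adjusted p = 0.0253), and without old anti-miR-mix 7 (0.0145), so that leaving out 1 library gave 0 to 1. Of all genes 1192 and 1082 passed in these fits, against 1196 in the main fit.

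Of the other pathway genes 1 passed in old control against young, 2 with DESeq2, with only the 2 groups in the fit and with the replicate block, and 0 with processing group as a factor, alone or with old control 5 and 6 as 1 library or dentate granule markers (both added after seeing the data). With inhibitory neuron markers the count stayed at 1, but the gene was Dpp3 in place of Pcsk1. Leaving out 1 library gave 0 to 1. For old anti-miR-mix against young 2 passed, 6 with DESeq2 and 1 without the filter on low counts, with only the 2 groups, with the replicate block, with limma on the deposited values and in both added fits with processing group. Pomc, which is among these pathway genes, had an adjusted p of 0.0415 with DESeq2 there. Leaving out 1 library gave 0 to 5. The causes were not tested.

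Direction turned for small or sparse differences. With inhibitory neuron markers as a covariate Oprm1 was at 0.11 in old control against young and -0.067 in old anti-miR-mix against old control. In the latter comparison Penk was at 0.044 with the replicate block and 0.051 with CA3 pyramidal markers, and Pomc at -0.062 with DESeq2. In old anti-miR-mix against young Pomc was at -0.70 with DESeq2 (adjusted p = 0.0415), which replaces outlying counts in groups of 7 or more, at -0.056 with processing group as a factor, -0.039 with limma, and -0.072 and -0.053 in the added fits with old control 5 and 6 as 1 library and with dentate granule markers. With 1 library left out the ranges were -0.12 to 0.061 for Oprm1 and -0.068 to 0.0071 for Oprl1 in old control against young, -0.068 to 0.078 for Penk, -0.0047 to 0.047 for Pnoc and -0.10 to 1.13 for Pomc in old anti-miR-mix against old control, and -0.14 to 0.0053 for Pdyn, -0.054 to 0.0045 for Pnoc and -0.74 to 0.50 for Pomc in old anti-miR-mix against young.

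The replicate numbers did not pair the libraries: same-numbered libraries of 2 groups correlated at -0.17 to 0.214 over 18 pairs, 6 of them above 0.1, and 4 correlated best with their own number. With the replicate block 651, 249 and 1192 of all genes were called in the 3 comparisons, against 514, 129 and 1196. Other counts over all genes that moved by more than 1.5 times were, in old control against young, 914 with DESeq2, 323 without the filter, 305 with old control 5 and 6 as 1 library, 333 with inhibitory neuron markers and 223 with the 5 and 6 merger and processing group. Between the old groups they were 267 with DESeq2, 48 with only the 2 groups, 9 with processing group, 33 with the merger, 20 with CA3 pyramidal markers, 6 in both added fits with processing group, and 0 with edgeR and inhibitory neuron markers (2149 at an unadjusted p under 0.05). Leaving out 1 library gave 212 to 691 and 23 to 247. Counts of 25 to 104 reads limit what can be said of Oprk1 and Oprm1. The largest shift by scaling of the median of all genes is under 0.1.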
